A study of Mus musculus with 12 samples.

Results

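Liver sinusoidal endothelial markers and endothelial signalling factors were followed in 12 libraries of sorted mouse hepatocytes. The 10 genes were chosen by symbol: Stab2, Clec4g, Pecam1, Kdr, Lyve1, Aqp1, Oit3, Bmp2, Wnt2 and Dnase1l3. All 10 were among the 37141 genes of the count table, and all 10 passed the filter on low counts that left 10780 genes for testing. Every group carried floxed alleles of Yap and Taz (Taz is Wwtr1), and each held 3 libraries. The uninjured controls (ctrl) had intact Yap and Taz. The injured controls (ctrl + CCl4) had received carbon tetrachloride, a toxin that kills the hepatocytes around the central veins, given at 1 ml/kg, and were collected 48 h later. The uninjured knockouts (Yap/Taz KO) had been given, 3 weeks earlier, an AAV8 vector (5e11 genome copies) in which the TBG promoter drives Cre in hepatocytes. The injured knockouts (Yap/Taz KO + CCl4) had received both. The labels name no control vector and no vehicle injection, give no animal ages, and do not say whether the libraries of a group came from separate animals. Each library came from 500000 cells sorted by flow cytometry after collagenase perfusion and low-speed spins, and how the sort was gated is not known from the labels.

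Sinusoidal endothelial cells line the capillaries of the liver lobule. They lack a basement membrane, are pierced by open pores, and lie directly over the hepatocytes, which they supply with signals. Scavenger and lectin receptors on their surface clear waste from blood, the VEGF receptor Kdr maintains them, and they secrete Bmp2, which raises hepcidin in hepatocytes, and Wnt2, which acts with other Wnt ligands on hepatocytes near the central vein. None of the 10 is known as a hepatocyte marker, and which cells in the sorted material their transcripts came from was not measured. Aqp1 is also made by bile duct cells, and Lyve1 by lymphatic endothelium and some macrophages. In bulk libraries such as these, fewer cells of a type and less RNA per cell cannot be told apart.

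The genes are on the GRCm38 build (GENCODE M21) and code for proteins. Stab2 lies on chromosome 10 from 86841198 to 87008025 (minus strand) and Lyve1 on chromosome 7 from 110850607 to 110863239 (minus strand). Clec4g lies on chromosome 8 from 3707064 to 3720651 (minus strand) and Pecam1 on chromosome 11 from 106654217 to 106750628 (minus strand). Kdr lies on chromosome 5 from 75932827 to 75978458 (minus strand) and Aqp1 on chromosome 6 from 55336432 to 55348555 (plus strand). Oit3 lies on chromosome 10 from 59422958 to 59441778 (minus strand), and Dnase1l3 on chromosome 14 from 7964533 to 7994573 (minus strand). Bmp2 lies on chromosome 2 from 133552159 to 133562885 (plus strand) and Wnt2 on chromosome 6 from 17988940 to 18030585 (minus strand). Stab2 overlaps 5 genes on the opposite strand and Clec4g 1, and the sources used here do not say whether counting used strand, so a part of those counts could come from the overlapping genes.

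RefSeq promoter windows (GRCm38.p6) were matched for 5 of the 10 genes, Stab2, Clec4g, Kdr, Aqp1 and Wnt2. The 3 shown here belong to genes that were highest in ctrl replicate 1, a library described further on, and the 2 not shown to genes that were not. They are the bases before the RefSeq start, without any base that a GENCODE transcript of the gene covers, in the direction of transcription. Kdr is at chr5:75978459-75978705, Clec4g at chr8:3720652-3720901 and Aqp1 at chr6:55336049-55336298, on the minus, minus and plus strand. Bases just after the RefSeq start were found in a GENCODE transcript of the gene for Kdr and Clec4g, and were not for Aqp1. The Aqp1 window ends at 55336298, before the GENCODE gene start at 55336432, and does not adjoin it.
Kdr: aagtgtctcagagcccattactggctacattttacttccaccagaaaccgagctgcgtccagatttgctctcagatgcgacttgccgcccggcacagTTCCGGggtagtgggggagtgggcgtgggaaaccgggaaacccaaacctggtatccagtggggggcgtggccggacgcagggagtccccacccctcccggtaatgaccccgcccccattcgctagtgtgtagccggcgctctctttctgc
Clec4g: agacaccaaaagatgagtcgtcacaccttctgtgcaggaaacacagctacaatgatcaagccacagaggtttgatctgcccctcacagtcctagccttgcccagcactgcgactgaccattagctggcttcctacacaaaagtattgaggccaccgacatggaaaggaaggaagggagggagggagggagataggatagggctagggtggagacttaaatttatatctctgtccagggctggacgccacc
Aqp1: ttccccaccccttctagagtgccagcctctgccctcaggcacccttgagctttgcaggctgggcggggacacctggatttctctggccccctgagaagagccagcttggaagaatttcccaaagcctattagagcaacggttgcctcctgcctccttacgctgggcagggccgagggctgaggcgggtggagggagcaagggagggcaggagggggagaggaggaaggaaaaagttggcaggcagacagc
Capitals mark the only match found to 3 short motifs searched on both strands: CCGGAA for ETS factors, AGATAA for GATA factors and CATTCC for TEAD factors, the DNA-binding partners of YAP and TAZ. The capitals of Kdr are the ETS letters read on the other strand. Over the 250 bases before the start, the ETS letters were in the Kdr window alone of the 5, and the GATA and TEAD letters in none of the 5. Among all 32851 windows of that length 12% held the ETS letters, 9.99% the GATA letters and 12.6% the TEAD letters. These are matches of letters, and no binding was measured.

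The libraries held 1617761 to 3028951 counts each. Levels are given as CPM (counts scaled to a common library size) after TMM scaling, which sets the bulk of genes equal between libraries. A library is prepared from the 3′ end of transcripts, so values do not depend on transcript length as in whole-transcript libraries, and levels are compared between libraries and not between genes. A list of 10 hepatocyte genes (such as Alb and Ttr) summed to between 58010 and 168700 CPM in every library, and the 10 endothelial genes to between 543.8 and 2333 CPM. The endothelial genes held 0.0421% to 0.222% of all counts, or 1127 to 5671 counts per library. Yap1 averaged 58.0 ± 16.1 CPM in ctrl and 15.6 ± 6.30 in Yap/Taz KO, and 56.6 ± 8.02 in ctrl + CCl4 and 14.5 ± 0.313 in Yap/Taz KO + CCl4 (SD, n = 3 each). Its knockout libraries lay below all control libraries in both states, although edgeR's adjusted p of 0.102 and 0.0995 missed the threshold of 0.05. Wwtr1 stood at 38.9 ± 17.1 and 14.7 ± 4.18 CPM before injury and at 33.7 ± 1.08 and 23.3 ± 2.97 after it (SD, n = 3 each; edgeR adjusted p = 0.235 and 0.983).

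The library ctrl replicate 1 stood apart in these genes. There the 10 genes summed to 2333 CPM, while the remaining ctrl libraries had 622 and 968.1 CPM, and there were at most 1394 in any other library. It held the highest level of all 12 libraries for 8 of the 10 genes, all but Stab2 and Wnt2. Relative to the mean of the other 2 ctrl libraries, ctrl replicate 1 was 13.8-fold higher in Lyve1, 5.66-fold in Oit3, 5.38-fold in Pecam1, 2.88-fold in Bmp2, 2.81-fold in Aqp1, 2.76-fold in Clec4g, 2.63-fold in Kdr and 2.29-fold in Dnase1l3. Stab2 was level at 1.05-fold, and Wnt2 was 1.73-fold. The same library was also high in markers of other cells, with 5 red cell genes at 1583 CPM (19.6 and 154 in ctrl replicates 2 and 3), 13 Kupffer and macrophage genes at 3179 CPM (566 and 754) and 11 stellate cell genes at 1447 CPM (379 and 543). None of these Kupffer or stellate genes was at 0 in any library. Their part in the results was not tested. At the other end, ctrl replicate 2 was the lowest ctrl library for all 10 genes, and Yap/Taz KO replicate 2 was the lowest Yap/Taz KO library for 9, all but Lyve1. Each comparison of the 10 genes with the ctrl group is therefore described with and without ctrl replicate 1.

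**Figure D1:**
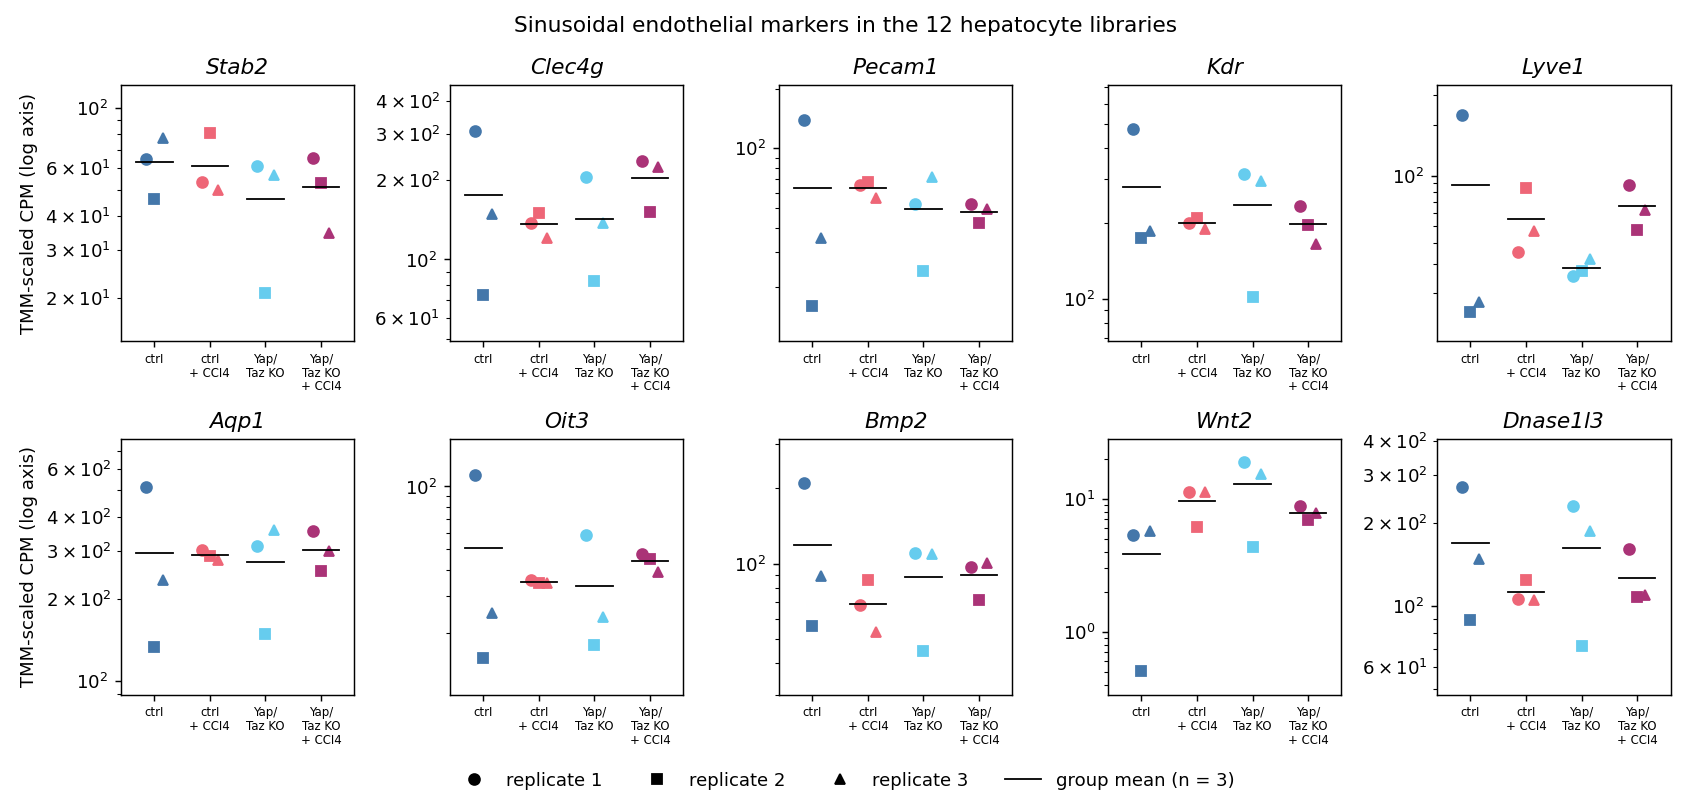
Level of each of the 10 genes in the 12 libraries, in TMM-scaled CPM on a log axis with its own range per gene. Symbols stand for replicates, colours for groups and lines for group means (n = 3). Ctrl replicate 1 is the highest point in 8 of the 10 panels, and by the median over the genes the uninjured groups are spread more widely than the injured ones.

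By the median over the genes, the libraries of a group lay further apart before injury than after it, a difference that was not tested. Over the 10 genes, the highest ctrl library exceeded the lowest by a median of 4.01-fold, from 1.67-fold for Stab2 to 14.8-fold for Lyve1. In Yap/Taz KO the median was 2.97-fold, from 1.26-fold for Lyve1 to 4.36-fold for Wnt2. The injured groups were tighter, with medians of 1.22-fold in ctrl + CCl4 and 1.41-fold in Yap/Taz KO + CCl4. Oit3 was the closest of all, at 35.5, 34.5 and 34.5 CPM in the 3 ctrl + CCl4 libraries, although it ran from 15.1 to 113 CPM in ctrl.

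Among the endocytic receptors, Stab2 was the steadiest of the 10 genes in ctrl and Lyve1 the least steady, while in Yap/Taz KO Lyve1 was the steadiest. Stab2 encodes stabilin 2, the main hyaluronan scavenger of the sinusoid. It stood at 65.0, 46.3 and 77.5 CPM in ctrl, at 53.1, 80.8 and 49.6 in ctrl + CCl4, at 61.2, 20.7 and 56.6 in Yap/Taz KO and at 65.3, 52.8 and 34.5 in Yap/Taz KO + CCl4. All 4 groups overlapped, and the low value was that of Yap/Taz KO replicate 2. Lyve1 encodes a hyaluronan receptor of sinusoidal and lymphatic endothelium. Its levels were 231, 15.6 and 17.8 CPM in ctrl, 35.2, 84.8 and 47.0 in ctrl + CCl4, 25.4, 27.0 and 31.9 in Yap/Taz KO and 88.1, 47.4 and 62.2 in Yap/Taz KO + CCl4. Apart from ctrl replicate 1, every uninjured library lay below every injured one for Lyve1. The ratio of Lyve1 to Stab2 counts was 3.55 in ctrl replicate 1, 0.337 in ctrl replicate 2 and 0.229 in ctrl replicate 3, and lay between 0.662 and 1.05 in ctrl + CCl4. Clec4g encodes LSECtin, a lectin of sinusoidal cells that binds glycans on pathogens and T cells. It measured 306, 73.5 and 149 CPM in ctrl and 137, 150.1 and 121 in ctrl + CCl4. In the knockouts it measured 206, 82.5 and 137 CPM before injury and 236, 151 and 225 after it. After injury all 3 knockout libraries were above all 3 controls for Clec4g, by 151 against 150.1 CPM at the closest point.

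The junction, receptor and channel genes were highest in ctrl replicate 1 and lowest in the replicate 2 of each uninjured group. Pecam1 encodes the adhesion molecule CD31 of endothelial junctions. It stood at 139, 16.1 and 35.5 CPM in ctrl, 65.6, 67.4 and 56.1 in ctrl + CCl4, 52.5, 24.1 and 72.0 in Yap/Taz KO and 52.4, 42.3 and 49.6 in Yap/Taz KO + CCl4. After injury the 3 knockout libraries lay below the 3 controls. Kdr encodes the main signalling receptor for VEGF. Kdr stood at 476, 176 and 186 CPM in ctrl, 201, 210.2 and 190.1 in ctrl + CCl4, 316, 102 and 294 in Yap/Taz KO and 236, 197 and 166 in Yap/Taz KO + CCl4. Aqp1 encodes a water channel, abundant in endothelium and bile duct cells. Aqp1 stood at 517, 134 and 235 CPM in ctrl, 303, 287 and 278 in ctrl + CCl4, 314, 149.6 and 359 in Yap/Taz KO and 355, 254 and 301 in Yap/Taz KO + CCl4. For both genes the groups overlapped in every comparison. Beside Aqp1, 7 bile duct genes summed to 44.1 to 75.7 CPM in ctrl and 388 to 463 CPM in ctrl + CCl4. In the knockouts they summed to 46.6 to 86.0 CPM before and 98.0 to 226 CPM after injury. Of the 7, 3 passed the filter on low counts, and Spp1 alone was called in each genotype. Spp1 stood at 32.1, 10.6 and 17.8 CPM in ctrl and 345, 291 and 416 in ctrl + CCl4. In Yap/Taz KO + CCl4 it stood at 113, 169 and 46.8 CPM. Spp1 thus made up most of the bile duct sum in each ctrl + CCl4 library. Krt19, Krt7, Epcam and Cftr averaged 1.45, 0.71, 1.55 and 0.025 CPM over the 12 libraries and were not tested. The part of these genes in the Aqp1 levels was not tested.

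Oit3 and Dnase1l3 encode secreted proteins, the latter a nuclease that digests DNA of dead cells in blood. Oit3 stood at 113, 15.1 and 24.9 CPM in ctrl and 35.5, 34.5 and 34.5 in ctrl + CCl4. In the knockouts Oit3 stood at 58.5, 17.4 and 23.8 CPM before and 47.4, 45.2 and 38.9 after injury. All 3 injured knockouts were above all 3 injured controls for Oit3. Dnase1l3 stood at 271, 89.1 and 148 CPM in ctrl, 107, 125 and 105 in ctrl + CCl4, 231, 71.4 and 187 in Yap/Taz KO and 161, 108 and 109.9 in Yap/Taz KO + CCl4. The narrow injured groups of Dnase1l3 sat inside the wide uninjured ones.

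The angiocrine ligands, which endothelial cells send to hepatocytes, differed from one another. Bmp2 stood at 210.2, 56.4 and 89.6 CPM in ctrl, 68.1, 86.0 and 53.5 in ctrl + CCl4, 110.5, 44.9 and 109 in Yap/Taz KO and 97.2, 71.7 and 100.5 in Yap/Taz KO + CCl4. Its groups overlapped in every comparison. Wnt2 was the rarest of the 10 and did not follow ctrl replicate 1. It had 13, 1 and 8 counts in ctrl, 31, 20 and 35 in ctrl + CCl4, 35, 9 and 36 in Yap/Taz KO and 28, 22 and 25 in Yap/Taz KO + CCl4. In CPM this was 5.35, 0.503 and 5.69 in ctrl, 11.3, 6.10 and 11.3 in ctrl + CCl4, 18.9, 4.34 and 15.3 in Yap/Taz KO and 8.84, 6.95 and 7.85 in Yap/Taz KO + CCl4. The lowest injured control library (6.10) was just above the highest uninjured one (5.69). The counting error of these values is wide: the exact 95% Poisson interval of the single count is 0.0253 to 5.57 counts, and that of 8 counts is 3.45 to 15.8. Such intervals cover counting error only.

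After injury of control hepatocytes, none of the 10 endothelial genes was called (edgeR adjusted p below 0.05) in a fit of all 12 libraries, against 22.5% of all 10780 genes tested. The estimates of 9 were below 0, within the error of the fit, and that of Wnt2 was above it, at 1.32 on the log2 scale (SE 0.65, edgeR adjusted p = 0.171). The largest difference toward a lower level was that of Bmp2 (-0.78, SE 0.42, edgeR adjusted p = 0.21), and Lyve1 was estimated at -0.68 (SE 0.71, edgeR adjusted p = 0.547). The median of the 10 was -0.43 against 0.03 over all genes, and -0.07 against 0.40 when libraries were scaled by their totals. None had an unadjusted p below 0.05, and DESeq2 and limma-voom with quality weights also called 0. For 1 of the 10, Wnt2, the injured and uninjured libraries did not overlap, which held for 36.7% of all genes.

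Without ctrl replicate 1 most estimates were above 0. On the log2 scale Lyve1 then rose by 1.75 (SE 0.39, edgeR adjusted p = 0.00382) and Pecam1 rose by 1.31 (SE 0.41, edgeR adjusted p = 0.024), against 28.6% of 11082 genes called in that fit. Higher values were estimated for 7 of the 10, with a median of 0.48 against 0.10 over all genes. Oit3 was at 0.82 (SE 0.42, edgeR adjusted p = 0.163), Aqp1 at 0.66 (SE 0.33, edgeR adjusted p = 0.156) and Wnt2 at 1.75 (SE 0.79, edgeR adjusted p = 0.11). Stab2 (-0.01), Bmp2 (-0.07) and Dnase1l3 (-0.07) were close to 0 with SE of 0.41, 0.36 and 0.38. With all 12 libraries kept, Pecam1 was also above 0 with RLE factors (0.01), DESeq2 (0.02), library totals (0.32), the replicate block (0.31) and limma-voom (0.67), and Lyve1 with limma-voom (0.34), none of them past the threshold. The direction of both genes in control hepatocytes thus depended on that library and on the fit. The Kupffer and macrophage sum was 566 and 754 CPM in the 2 remaining ctrl libraries and 2958 to 5152 in ctrl + CCl4. Its part in the Lyve1 difference was not tested.

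**Figure D2:**
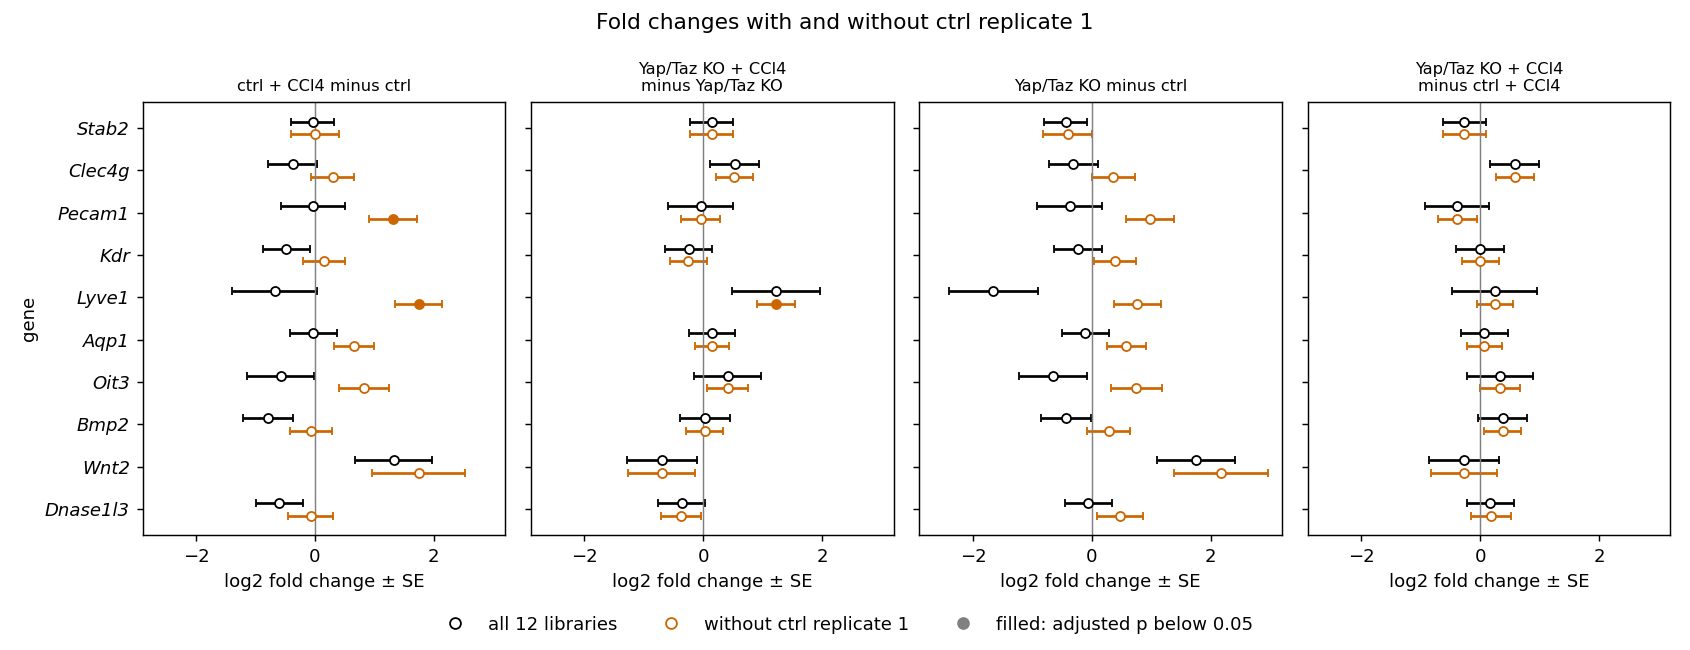
Log2 fold change with its SE for each of the 10 genes in 4 comparisons, fitted with all 12 libraries (black) and without ctrl replicate 1 (orange), filled where the adjusted p was below 0.05. Only Lyve1 and Pecam1 after injury of controls and Lyve1 after injury of knockouts are filled, all without ctrl replicate 1. The 2 comparisons that use ctrl shift to the right for most genes when that library is left out.

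In Yap/Taz KO hepatocytes injury called 0 of the 10 genes with all libraries, against 17.8% of all genes, also with DESeq2 and limma-voom and with 0 at an unadjusted p below 0.05. Lyve1 had the largest estimate, 1.22 (SE 0.74, edgeR adjusted p = 0.29), and its 3 injured libraries (47.4 to 88.1 CPM) lay above its 3 uninjured ones (25.4 to 31.9 CPM). It was the 1 gene of the 10 whose groups did not overlap, against 39.4% of all genes. Ctrl replicate 1 is in neither group, but enters the shared estimate of spread. Without it Lyve1 rose by 1.22 (SE 0.32, edgeR adjusted p = 0.0121), as the single call of the 10 against 21% of all genes. Wnt2 was estimated at -0.70 (SE 0.59, edgeR adjusted p = 0.458), Clec4g at 0.52 (SE 0.41, edgeR adjusted p = 0.427), and Bmp2 at 0.03 (SE 0.42). The median of the 10 was 0.08 against 0.03 over all genes. The Kupffer and macrophage sum was 275 to 1355 CPM before and 2412 to 3525 CPM after injury in these groups, and its part in the Lyve1 difference was not tested.

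Before injury, the knockout of Yap and Taz in hepatocytes called none of the 10 genes, where 0% of all genes passed. An unadjusted p below 0.05 was found for 2, Wnt2 at 1.75 on the log2 scale (SE 0.66, unadjusted p = 0.0179, edgeR adjusted p = 0.449) and Lyve1 at -1.66 (SE 0.75, unadjusted p = 0.0426, edgeR adjusted p = 0.514). The sign of Lyve1 rested on ctrl replicate 1: without it the estimate was 0.77 (SE 0.39, edgeR adjusted p = 0.445). Wnt2 stayed higher without it, at 2.18 (SE 0.79, edgeR adjusted p = 0.301), although the groups overlapped through Yap/Taz KO replicate 2. Of the 10 genes 1 had a positive estimate with all libraries (median -0.34 against -0.03 over all genes) and 9 had one without ctrl replicate 1 (median 0.53 against 0.05). In that fit 0 of the 10 were called, beside 0.00902% of all genes. The ranges of the groups overlapped for all 10 genes, where 10.7% of all genes had ranges that did not.

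After injury, the knockout and control libraries were close for most of the 10 genes. None was called, where 0% of all genes were called with all libraries and 0.00902% without ctrl replicate 1, and none had an unadjusted p below 0.05. Clec4g was estimated at 0.58 (SE 0.41, 95% interval -0.30 to 1.46, edgeR adjusted p = 0.986), with means of 204 ± 46.2 CPM in the knockouts and 136 ± 14.5 in the controls (SD, n = 3 each). Pecam1 was estimated at -0.39 (SE 0.54, 95% interval -1.55 to 0.77, edgeR adjusted p = 0.992), with means of 48.1 ± 5.20 and 63.0 ± 6.09 CPM (SD, n = 3 each). Oit3 was estimated at 0.33 (SE 0.56, 95% interval -0.86 to 1.52, edgeR adjusted p = 0.992), with means of 43.8 ± 4.37 and 34.8 ± 0.609 CPM (SD, n = 3 each). These were the 3 genes whose injured groups did not overlap, beside 16.3% of all genes. The tightest interval of the 10 was that of Stab2 (-0.27, -1.04 to 0.50), and Kdr lay at -0.01 (-0.86 to 0.85). Differences up to those bounds could not be told from 0. The fit shares 1 estimate of spread over all 4 groups, and that includes the wider uninjured ones.

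The difference between the injury responses of the 2 genotypes passed for 0 of the 10 genes, where 0% of all genes passed both with and without ctrl replicate 1. Wnt2 had the estimate furthest below 0, -2.02 (SE 0.88, 95% interval -3.90 to -0.145, unadjusted p = 0.0365, edgeR adjusted p = 0.601). The injury estimates of Wnt2 differed in sign, at 1.32 in controls and -0.70 in knockouts. Its mean went from 3.85 ± 2.90 to 9.58 ± 3.01 CPM in controls and from 12.9 ± 7.61 to 7.88 ± 0.944 CPM in knockouts (SD, n = 3 each). Lyve1 was estimated at 1.90 (SE 1.03, edgeR adjusted p = 0.638) with all libraries and at -0.53 (SE 0.50, edgeR adjusted p = 0.684) without ctrl replicate 1. In the latter fit Wnt2 was at -2.45 (SE 0.97, edgeR unadjusted p = 0.0225, adjusted p = 0.331). Pecam1, at -0.01 with all libraries, was then at -1.36 (SE 0.52, edgeR unadjusted p = 0.0196, adjusted p = 0.325). Positive estimates numbered 8 of 10 with all libraries and 3 of 10 without that library. DESeq2 and limma-voom called none of the 10 in this or in either knockout comparison.

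Within the summed counts of the 10 genes, the share of each can be followed without the level of the whole set. Bmp2 made up 9.01% to 9.25% of them in ctrl, including ctrl replicate 1, and 5.65% to 7.60% in ctrl + CCl4. Its knockout shares were 7.93% to 8.48% before and 7.22% to 9.17% after injury. Dnase1l3 went from 11.6% to 15.3% in ctrl to 10.5% to 11.1% in ctrl + CCl4, and from 13.1% to 16.6% in Yap/Taz KO to 10.0% to 11.9% in Yap/Taz KO + CCl4. Aqp1 went the other way in the controls, from 21.5% to 24.2% up to 25.4% to 29.8%. Pecam1 took 5.92% to 6.45% in ctrl + CCl4 and 3.89% to 4.53% in Yap/Taz KO + CCl4, and Clec4g 12.8% to 13.5% and 15.5% to 20.5%. Lyve1 took 9.89% in ctrl replicate 1, against 2.51% and 1.84% in ctrl replicates 2 and 3. Wnt2 took 0.0809% to 0.587% in ctrl and 0.539% to 1.19% in ctrl + CCl4. In the knockouts it took 0.799% to 1.36% before and 0.656% to 0.717% after injury. Shares in 1 library sum to a whole, so one gene's higher share lowers the rest, and they were not tested. How often the share ranges of 2 groups part without any effect was not measured.

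**Figure D3:**
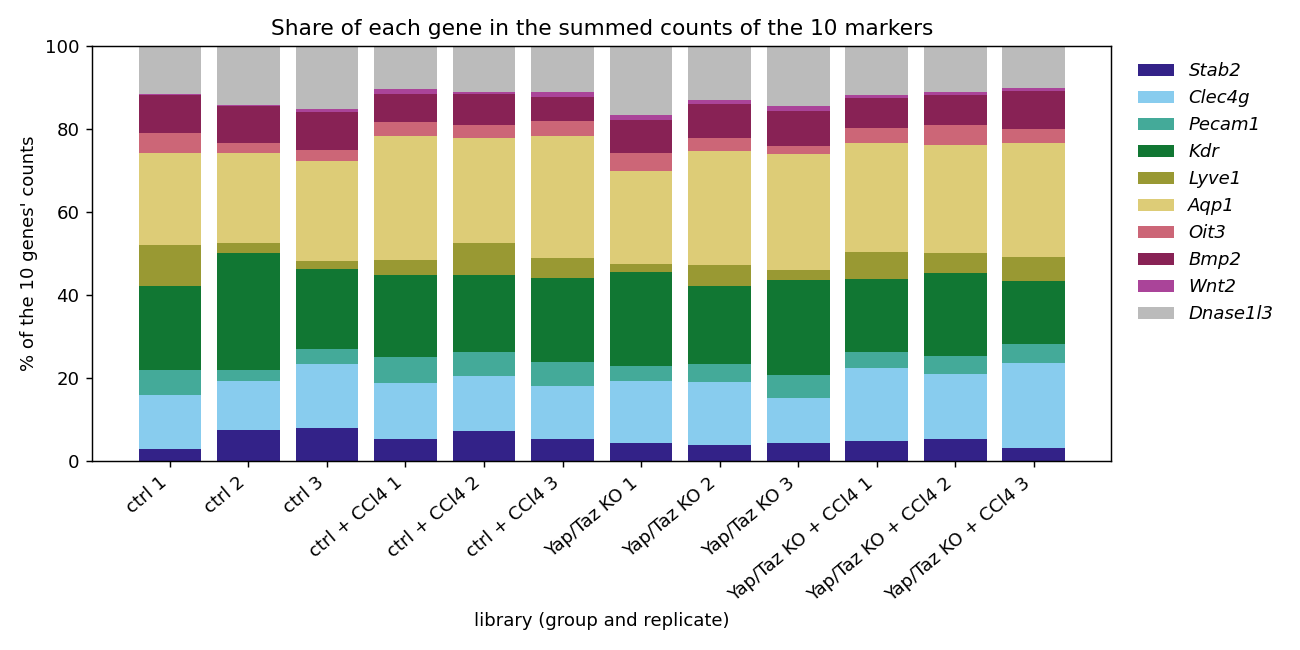
Share of each gene in the summed counts of the 10 genes, one bar per library, in percent. The band of Bmp2 is 9.01% to 9.25% in the 3 ctrl libraries and narrower in the 3 ctrl + CCl4 libraries, and the band of Lyve1 is widest in ctrl replicate 1.

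Over the 12 libraries most of the 10 genes varied together. Pearson's r of log2 CPM was 0.956 between Aqp1 and Pecam1, 0.935 between Kdr and Dnase1l3 and 0.896 between Clec4g and Oit3 (0.938, 0.905 and 0.862 over the 11 libraries other than ctrl replicate 1). Stab2 and Wnt2 were the least like the rest, with medians over the other 9 genes of 0.48 and 0.44. Without ctrl replicate 1, Lyve1 became the least like the others at a median of 0.369, and Wnt2 reached 0.638. The genes whose levels were most like the mean of the 10 were Mecom (r = 0.93), Amotl1 (0.922), Ctdspl (0.919), Cdh5 (0.918), Hoxa5 (0.907), Cemip2 (0.904), Ppard (0.901) and Esam (0.898). Cdh5 encodes the cadherin of endothelial junctions and Esam another endothelial adhesion molecule. Of these 8, Mecom and Hoxa5 were also among the 8 nearest without ctrl replicate 1. These values are descriptions over libraries that share their depth and cell preparation.

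Other endothelial genes were measured from a list of 28, of which 27 passed the filter on low counts. In control hepatocytes 0 rose and 2 fell after injury, beside 22.5% of all genes called. Ehd3, an endocytic trafficking protein of the sinusoid, stood at 557, 157 and 181 CPM in ctrl and 99.6, 104 and 106 in ctrl + CCl4 (log2 fold change -1.53, SE 0.43, edgeR adjusted p = 0.018), but at -0.71 (SE 0.31) without ctrl replicate 1, where it did not pass. Plpp3, a lipid phosphate phosphatase, stood at 389.5, 400 and 322 CPM and 173, 199 and 197 (-0.97, SE 0.20, edgeR adjusted p = 0.0025), and did not follow ctrl replicate 1. In the knockouts Plpp3 alone fell (-0.68, SE 0.19, edgeR adjusted p = 0.0258), beside 17.8% of all genes called. Leaving out any single ctrl + CCl4 library also ended the Ehd3 call, and that of Plpp3 in knockouts ended without replicate 1 or 3 of either knockout group. All 3 calls were lost when libraries were scaled by their totals (Ehd3 -1.18 with edgeR adjusted p = 0.0629, Plpp3 -0.60 with 0.0543 and, in knockouts, -0.30 with 0.338). Without ctrl replicate 1, 5 rose and 1 fell in controls, and 2 rose and 1 fell in knockouts. In that fit 28.6% and 21% of all genes were called. Plvap, which forms the diaphragms of endothelial pores, was then higher in both (1.66, SE 0.45, edgeR adjusted p = 0.0113, and 1.30, SE 0.37, edgeR adjusted p = 0.0205). The others that rose were Stab1, Eng, Tek and Gata4 in controls and Fcgr2b in knockouts. In the 2 knockout comparisons 0 of the 27 passed, where 0% of all genes passed. The sum of the 28 ran from 1475 to 3430 CPM in ctrl and 1709 to 1922 in ctrl + CCl4, and from 1171 to 2412 and 1713 to 2102 in the knockouts. Ctrl replicate 1 had the 3430 CPM. Ctrl replicates 2 and 3 had 1475 and 1520 CPM, below every ctrl + CCl4 library.

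Among 10 further angiocrine factors 7 passed the filter. Of these 7, 1 was called after injury in each genotype, beside 22.5% and 17.8% of all genes. This was Hgf, the growth factor for hepatocytes that stellate and endothelial cells make, which rose in both. It stood at 4.53, 4.03 and 2.13 CPM in ctrl and 15.7, 16.2 and 10.6 in ctrl + CCl4 (1.94, SE 0.48, edgeR adjusted p = 0.0094), and at 3.25, 1.45 and 1.70 in Yap/Taz KO and 14.2, 8.53 and 7.22 in Yap/Taz KO + CCl4 (2.22, SE 0.51, edgeR adjusted p = 0.00785). The call in controls was lost with limma-voom and quality weights (adjusted p = 0.0705), and held without ctrl replicate 1 (2.14, SE 0.57, edgeR adjusted p = 0.0111). The stellate cell sum moved with it, from 379 to 1447 CPM up to 1016 to 1784 in controls and from 331 to 965 up to 1526 to 1652 in knockouts, and its part in the Hgf rise was not tested. Rspo3, which amplifies Wnt signals, stood at 47.3, 9.56 and 23.5 CPM in ctrl and 24.9, 22.3 and 26.4 in ctrl + CCl4 and did not pass. Bmp6, the partner of Bmp2 in inducing hepcidin, was at 0 counts in 10 of the 12 libraries. Wnt9b, the partner of Wnt2, had at most 10 counts. Angpt2, an angiopoietin of activated endothelium, had 51 counts in ctrl replicate 1 and 0 in ctrl replicates 2 and 3. Without ctrl replicate 1, Jag1 (1.99, SE 0.66, edgeR adjusted p = 0.0333) and Angpt2 also rose in controls. With Hgf that was 3 of 7, beside 28.6% of all genes.

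Genes that can receive or answer these signals in hepatocytes were also listed. Which cells in the sorted material their transcripts came from was not measured. Of 17 genes of the Bmp and hepcidin pathway 2 rose and 2 fell after injury of controls, and 1 rose and 3 fell in knockouts. These 4 of 17 are a share near that of all genes called (22.5% and 17.8%). Hamp, the hepcidin gene, did not pass in either (0.42, edgeR adjusted p = 0.406, and 0.88, edgeR adjusted p = 0.0804), while its paralog Hamp2 fell in both (-7.16 and -6.79). In knockouts Hamp was called in 5 of 21 settings, among them library totals (1.29, edgeR adjusted p = 0.0105). Id1, a direct target of Bmp signalling, rose in both (2.14, edgeR adjusted p = 0.0103, and 2.95, edgeR adjusted p = 0.00226), and the transferrin receptor gene Tfr2, which feeds into hepcidin control, fell in both (-0.99 and -0.79). Tfr2 missed the threshold in knockouts with library totals (-0.42, edgeR adjusted p = 0.17) and without replicate 3 of the uninjured or replicate 1 or 3 of the injured knockouts. Id1 and Tfr2 were named after their values were seen. Hamp and Hamp2 are near-identical copies, so some reads could be split between them, which was not tested. In ctrl + CCl4 Hamp stood at 1655 to 1706 CPM and Hamp2 at 17.4 to 22.7 CPM. Of 18 tested Wnt receptors and targets, 0 rose and 7 fell in controls and 0 rose and 6 fell in knockouts, beside 22.5% and 17.8% of all genes called. Glul, the glutamine synthetase of the hepatocytes next to the central vein, fell in both (-3.48, SE 0.31, edgeR adjusted p = 5.04e-06, and -3.68, SE 0.31, edgeR adjusted p = 3.49e-06), while Wnt2 did not pass in either. Axin2, a general Wnt target, was estimated at -1.17 (SE 0.74) and -1.10 (SE 0.74) and did not pass. Of 5 tested VEGF and angiopoietin family ligands 2 fell in controls and 3 in knockouts, beside the same 22.5% and 17.8%. Vegfa, the ligand of Kdr, fell in both (-0.89, SE 0.28, edgeR adjusted p = 0.0293, and -0.97, SE 0.27, edgeR adjusted p = 0.0235). These calls were lost without ctrl replicate 2 or 3 or ctrl + CCl4 replicate 3 in controls, and in knockouts without replicate 1 or 3 of the uninjured or replicate 1 or 2 of the injured group. Scaled by library totals Vegfa missed the threshold (-0.53, edgeR adjusted p = 0.152, and -0.60, edgeR adjusted p = 0.123). Kdr itself did not pass, at -0.48 (SE 0.40) and -0.25 (SE 0.40). Without ctrl replicate 1, Hamp2 (-6.80), Glul (-3.77) and Vegfa (-1.15) also fell in controls. The Bmp list then had 2 higher and 3 lower calls in each genotype, the Wnt list 7 lower in each, and the VEGF list 2 lower in controls and 3 in knockouts. In that fit 28.6% of all genes were called in controls and 21% in knockouts. With all libraries none of these genes passed in either knockout comparison, where 0% of all genes passed.

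**Figure D4:**
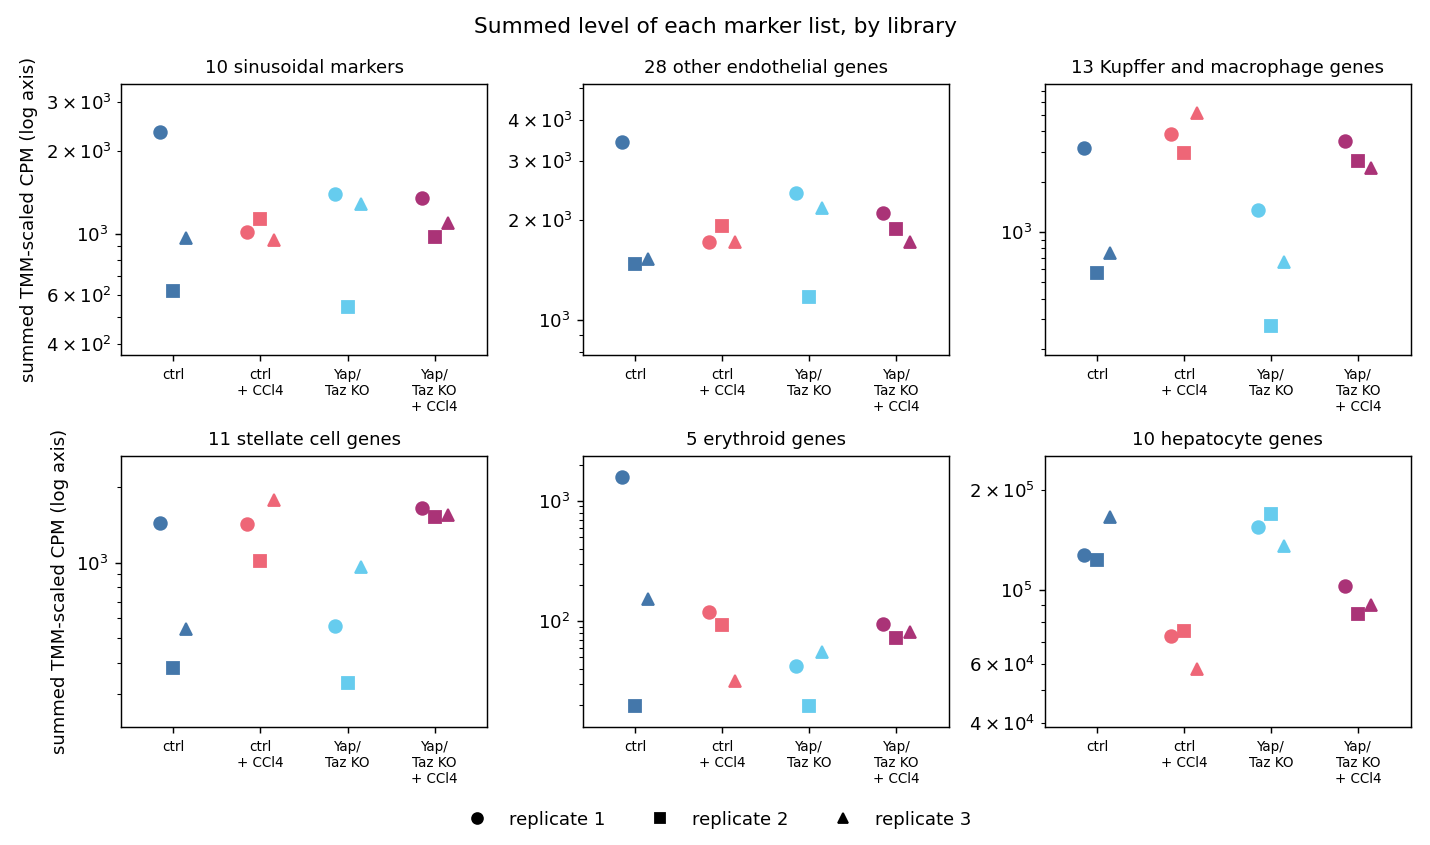
Summed level of 6 lists of marker genes in each library, in TMM-scaled CPM on log axes whose ranges differ. Ctrl replicate 1 is high in both endothelial lists and in the Kupffer, stellate and red cell lists. Over both genotypes together, the endothelial sums of the injured libraries lie inside the range of the uninjured ones. In the list of other endothelial genes, the ctrl + CCl4 libraries lie above ctrl replicates 2 and 3. The Kupffer sum is at least 2412 CPM in the injured libraries and at most 1355 CPM in the uninjured ones other than ctrl replicate 1.

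Markers of other cells were set beside the endothelial genes. The sum of the 10 genes was 947 to 1132 CPM in ctrl + CCl4, inside the ctrl range of 622 to 2333, and 976 to 1347 CPM in Yap/Taz KO + CCl4, inside the Yap/Taz KO range of 543.8 to 1394. The upper end in ctrl was ctrl replicate 1. Without it the ctrl sums were 622 and 968.1 CPM, and those of ctrl + CCl4 were 1016, 1132 and 947. These sums depend on the scaling, as TMM factors were 0.776 to 0.955 in uninjured and 1.071 to 1.312 in injured libraries. As a percent of all counts, ctrl replicates 2 and 3 held 0.0584% and 0.0842%, below the 0.1205%, 0.1225% and 0.1234% of ctrl + CCl4. Yap/Taz KO held 0.1125%, 0.0421% and 0.1193%, and Yap/Taz KO + CCl4 0.1436%, 0.1057% and 0.1201%. After injury, in the fit of all 12 libraries, 3 of 13 Kupffer and macrophage genes rose in controls and 5 of 13 in knockouts. Of 6 tested monocyte and neutrophil genes 3 rose in controls and 6 in knockouts, and 3 and 5 of 11 stellate cell genes rose. Of the 10 hepatocyte genes, 9 fell in controls and 2 in knockouts. Of all genes 22.5% were called in controls and 17.8% in knockouts, in either direction (1137 of 2427 and 1016 of 1916 of them higher). Counted in either direction, the 3 of 13 and 3 of 11 in controls and the 2 of 10 in knockouts are near those shares. The shares mix both directions, while the calls in each of these lists went in a single direction, so the likeness covers the number called only. Without ctrl replicate 1 the counts were 11 of 13 Kupffer and macrophage genes in each genotype, 6 of 6 monocyte and neutrophil genes in each, and 6 and 5 of 11 stellate genes, all higher, with 9 and 5 of 10 hepatocyte genes lower. In that fit 28.6% and 21% of all genes were called. Lymphocyte markers summed to 11.4 CPM at most, with Cd79a at 0 in all 12 libraries. The 6 platelet genes summed to 1.42 to 21.8 CPM in ctrl and 22.6 to 50.6 in ctrl + CCl4, and to 2.41 to 5.96 and 31.1 to 48.0 CPM in the knockouts. Of the 6 platelet genes 2 were tested. Pf4, a platelet chemokine, rose in both genotypes (2.78, edgeR adjusted p = 0.00562, and 5.18, edgeR adjusted p = 0.000441). It alone held 39.2, 17.4 and 45.1 CPM in the 3 ctrl + CCl4 libraries. Itga2b did not pass in either genotype (0.15, edgeR adjusted p = 0.919, and 0.23, edgeR adjusted p = 0.888). Gp9 and Tubb1 were at 0 in all 12 libraries. The part of these cells in the results was not tested.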

How the data were processed

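RNA was measured with QuantSeq 3′ mRNA-Seq FWD libraries from sorted hepatocytes, per the labels' protocols. The deposited table holds unscaled whole-number counts for each gene symbol. FastQC, cutadapt and STAR 2.6.1d are named in the submitters' processing notes, with the builds mm10 and GRCm38. Which counter and annotation were used, and whether reads were collapsed by molecular identifier, is not stated in those notes or labels. Of 37141 symbols 36460 were found in GENCODE M21, all 10 described genes among them.

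Counts were tested with edgeR 4.0.16 (R 4.3.3): filterByExpr (minimum count 10, minimum total 15), TMM scaling, 1 coefficient for each of the 4 groups over 12 libraries, quasi-likelihood F test, and Benjamini-Hochberg adjustment over 10780 genes at 0.05. Since separate animals are not stated, p-values rest on the spread of these libraries, which may be technical. No 2 libraries of a group were alike within counting error (chi-square divided by its degrees of freedom, 8.56 to 26.6). Likeness used log2 CPM with a prior count of 2. Alternatives were RLE factors, library totals, DESeq2 1.42.0, no filter, a filter of 5 CPM in 3 libraries or more, limma-voom (limma 3.58.1) with quality weights, a replicate block, the 6 libraries compared, and leaving out each library. The script was tested on simulated data.

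The 10 genes, the lists and the tests were chosen with earlier results of these data known. Named beside the 10 were Yap1, Wwtr1, 7 pathway genes, the 2 most abundant genes of each list, endothelial and angiocrine genes past the threshold (at most 6 per comparison) and the 8 most alike genes. Id1, Tfr2, Pf4, Cd79a, Gp9, Tubb1 and the list counts without ctrl replicate 1 were added after the values were seen.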

Additional observations from a re-analysis of the deposited data

How the results depend on the processing

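Counts of the 10 genes called stayed at 0 in every comparison with RLE factors, library totals, the 5 CPM filter, DESeq2, limma-voom and the replicate block. Without the filter on low counts 1 gene was called in each of 4 comparisons: Bmp2 after injury of controls (-0.77, edgeR adjusted p = 0.0457), and Lyve1 after injury of knockouts (1.23, edgeR adjusted p = 0.000616), for the knockout before injury (-1.65, edgeR adjusted p = 1.89e-05) and for the difference between injury responses (1.89, edgeR adjusted p = 0.00152). The last 2 of these Lyve1 estimates use ctrl replicate 1. In the filtered fit without that library they had the other sign, at 0.77 (edgeR adjusted p = 0.445) and -0.53 (edgeR adjusted p = 0.684). In the 6 libraries compared, 1 gene was called after injury of knockouts (Lyve1, 1.23, edgeR adjusted p = 0.00665). Leaving out single libraries gave 0 to 2 called genes after injury of controls and 0 to 1 after injury of knockouts, the higher ones without ctrl replicate 1, and 0 elsewhere. The cause was not tested. Over all genes, the knockout before injury, the knockout after injury and the difference between injury responses called 0 genes each (1020, 613 and 874 at an unadjusted p below 0.05), against 43, 17 and 12 with DESeq2, 0, 17 and 0 with limma-voom, and 210, 109 and 115 in edgeR without the filter. With library totals, estimates changed sign: Stab2 0.324, Pecam1 0.315 and Aqp1 0.332 for injury of controls, Pecam1 0.291 and Kdr 0.095 for injury of knockouts, Aqp1 -0.072 for the knockout after injury (log2). With RLE factors, estimates changed sign: Pecam1 0.007 and Aqp1 0.007 for injury of controls (log2). With DESeq2, estimates changed sign: Pecam1 0.018 and Aqp1 0.007 for injury of controls (log2). With limma-voom and quality weights, estimates changed sign: Pecam1 0.668, Lyve1 0.338, Aqp1 0.328 and Oit3 0.1 for injury of controls, Pecam1 0.02 for injury of knockouts, Clec4g 0.023, Pecam1 0.284, Aqp1 0.209 and Dnase1l3 0.115 for the knockout before injury, Kdr 0.04 for the knockout after injury, Aqp1 -0.139 for the difference between injury responses (log2). In the 6 libraries compared, estimates changed sign: Kdr 0.005 for the knockout after injury (log2). With a replicate block, estimates changed sign: Stab2 0.004, Pecam1 0.307 and Aqp1 0.156 for injury of controls, Pecam1 0.027 for injury of knockouts (log2). Deviations of same-numbered libraries correlated at -0.152 to 0.323, highest between ctrl and Yap/Taz KO for replicate 1 (0.323) and replicate 2 (0.244). Deviations from means of 3 libraries cannot settle whether replicate numbers pair the libraries, so the block is given as an alternative only. Leaving out 1 library at a time turned the sign of these log2 estimates over the ranges given. For injury of controls, Stab2 ran from -0.254 to 0.138, Clec4g ran from -0.74 to 0.301, Pecam1 ran from -0.485 to 1.312, Kdr ran from -0.723 to 0.148, Lyve1 ran from -1.17 to 1.746, Aqp1 ran from -0.374 to 0.656 and Oit3 ran from -1.007 to 0.82. For injury of knockouts, Stab2 ran from -0.213 to 0.386, Pecam1 ran from -0.376 to 0.332, Kdr ran from -0.614 to 0.007, Aqp1 ran from -0.153 to 0.388 and Bmp2 ran from -0.291 to 0.217. For the knockout before injury, Clec4g ran from -0.677 to 0.364, Pecam1 ran from -0.825 to 0.973, Kdr ran from -0.488 to 0.396, Lyve1 ran from -2.15 to 0.766, Aqp1 ran from -0.449 to 0.582, Oit3 ran from -1.318 to 0.745, Bmp2 ran from -0.766 to 0.283 and Dnase1l3 ran from -0.383 to 0.469. For the knockout after injury, Kdr ran from -0.146 to 0.115, Lyve1 ran from -0.026 to 0.661, Aqp1 ran from -0.071 to 0.182 and Dnase1l3 ran from -0.044 to 0.272. For the difference between injury responses, Stab2 ran from -0.18 to 0.417, Pecam1 ran from -1.36 to 0.438, Kdr ran from -0.4 to 0.484, Lyve1 ran from -0.525 to 2.392, Aqp1 ran from -0.513 to 0.517, Oit3 ran from -0.412 to 1.651 and Dnase1l3 ran from -0.296 to 0.556. Over the alternatives 83 estimates changed sign and 901 kept their sign and their side of the threshold. Depth limits Wnt2 most, at 1 to 36 counts per library.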
